A study of Drosophila melanogaster with 31 samples.

Results

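The transposon RNAs recovered with the protein Nxf2 differed between libraries of Piwi-depleted and control cells. Of 27 compared elements with more RNA after Piwi depletion, 10 were less abundant among the RNAs recovered with Nxf2 and 5 were more abundant. Of all 72 elements compared, 19.4% were less abundant there and 9.72% more abundant. The RNA levels came from other cells, and each condition had 1 column of values. The comparison covered the myc-Nxf2 immunoprecipitates (IP) of a crosslinking and immunoprecipitation (CLIP) experiment, with 2 samples of Piwi-KD cells and 2 of EGFP-KD cells, 4 of the 31 samples of the series. KD stands for knockdown by small interfering RNA. Its members were the transposable element entries with a mean of at least 1 RPM (reads scaled to the library total) over the 4 CLIP columns of the knockdown experiment (IP and input of both knockdowns), which kept 78 of 129 entries. Of the 51 entries left out, 26 had 0 reads in all 4 CLIP libraries and none had more than 3 reads in either IP. The kept entries held 99.9% of the element reads of both IPs. Nearest to the threshold, the 5 lowest entries kept had means of 1.12 to 1.88 RPM (TAHRE, QUASIMODO2, HETA, DMTOM1 and BS2), and the 5 highest left out had 0.782 to 0.896 RPM (GYPSY12A, INVADER6, GYPSY10, GYPSY11 and TC1).

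All cells were ovarian somatic cells (OSC), a follicle-cell-derived line of *Drosophila melanogaster*, grown at 26 degrees C. The CLIP cells were a stable line expressing myc-tagged Nxf2, and those of both groups had also been depleted of endogenous Nxf2, so they differed in the knockdown of Piwi against that of EGFP, a gene foreign to the fly. Nxf2 is missing from the header of the EGFP-KD IP column, so the depletion of endogenous Nxf2 in that group rests on the labels. RNA was crosslinked to protein, trimmed with RNase T1 and recovered with an antibody against the tag. Size-matched input (SMInput) came from 2 samples of each knockdown. The RNA levels set beside the IP came from poly(A)+ RNA sequencing of 1 Piwi-KD and 2 EGFP-KD samples of cells whose labels name neither the myc-Nxf2 line nor a knockdown of Nxf2. The tables gave 1 column per condition, and whether replicates were pooled is not stated in the sources used here, so no difference below has a replicate check. Each ratio is reads per library total in Piwi-KD over EGFP-KD cells, with an exact 95% counting interval that compares these libraries only. Calls needed a difference of at least 2-fold (a ratio of 2 or more, or 0.5 or less) and an interval that excluded 1. The tables hold transposable elements alone, so the depletion of Piwi and of Nxf2 and the markers of follicle cells were not analysed here.

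In follicle cells, Piwi is loaded with small RNAs (piRNAs), many of them copied from long clusters of old transposon fragments, and finds nascent transposon transcripts in the nucleus by base pairing. Panx, Nxf2 and their partners then act on the chromatin of the targeted copy so that transcription falls and the repressive mark H3K9me3 accumulates. Nxf2 is a relative of the general messenger RNA exporter Nxf1, but it is known for this silencing and not for export. Many targets in these cells are LTR retrotransposons, which copy themselves through RNA and carry long terminal repeats, such as the gypsy group with its retrovirus-like members. Non-LTR elements such as I and DOC, and DNA transposons, make up the other classes. No consensus sequence of an element was at hand, so none is printed.

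The Piwi-KD IP library had 1109830 reads and the EGFP-KD IP library 1082564. Elements took 2.78% of reads in the Piwi-KD IP (Wilson 95% interval 2.75 to 2.81%) and 2.23% in the EGFP-KD IP (2.198 to 2.254%). In RNA the same shares were 16.4% in Piwi-KD cells and 5.68% in EGFP-KD cells, and in SMInput 1.46% and 0.873% in Piwi-KD and EGFP-KD cells. Reads are not independent molecules, so the intervals cover counting error only. Values are relative to each library's own total, and the amount of RNA crosslinked to Nxf2 in each condition was not measured by these tables. In lysates of pooled cells, fewer cells holding an element's RNA and less of it per cell cannot be told apart.

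Of the 72 elements with an IP ratio, 7 passed as higher with Piwi depleted and 14 as lower. That is 9.72% higher and 19.4% lower, and 51 elements passed in neither direction. The other 6, with at most 3 reads in either IP, gave no ratio: ACCORD, DMTOM1, HETA, INVADER3, PROTOP_B and QUASIMODO2. The median ratio was 0.975, so gains and losses lay about evenly around no change. The sums were uneven: the elements with more RPM in the Piwi-KD IP gained 7849 RPM together, and those with less dropped by 2297 RPM.

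**Figure D1:**
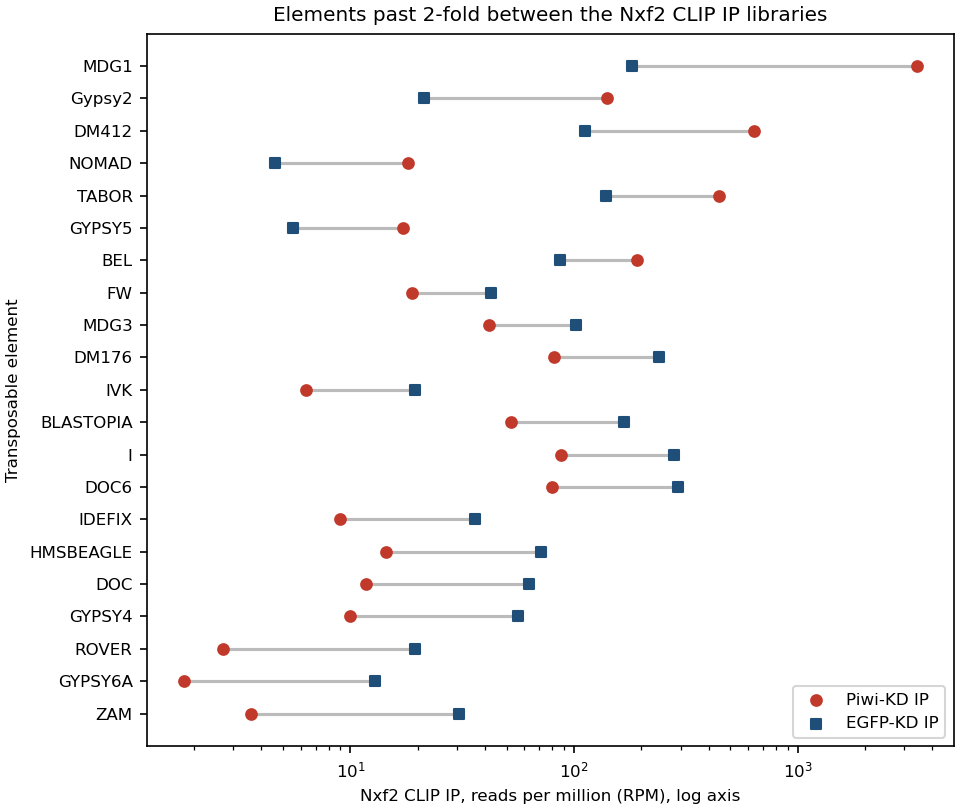
RPM (log axis) in the Nxf2 CLIP IP of Piwi-KD cells (circles) and EGFP-KD cells (squares) for the 21 elements called between these libraries, ordered by their ratio. MDG1, at the top, had 3417 RPM in the Piwi-KD IP and 181 RPM in the EGFP-KD IP, and ZAM, at the bottom, had 3.60 and 30.5 RPM in the same order.

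The largest gain was in MDG1, an LTR retrotransposon of the gypsy superfamily. It had 3792 reads (3417 RPM) in the Piwi-KD IP and 196 reads (181 RPM) in the EGFP-KD IP, a ratio of 18.9 (16.3 to 21.9). MDG1 made up 12.3% of the element reads of the Piwi-KD IP and 0.813% of those of the EGFP-KD IP. Gypsy2 had 156 reads in the Piwi-KD IP and 23 in the EGFP-KD IP, 6.62-fold higher (4.25 to 10.7). DM412, a close relative of MDG1, had 708 reads in the Piwi-KD IP and 121 in the EGFP-KD IP, 5.71-fold higher (4.70 to 6.98). These 3 had the largest IP ratios, and their intervals lay wholly above 2-fold.

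TABOR rose 3.22-fold (2.68 to 3.89), with 495 reads in the Piwi-KD IP and 150 in the EGFP-KD IP. NOMAD, a gypsy-superfamily element, had 20 reads in the Piwi-KD IP and 5 in the EGFP-KD IP, 3.90-fold higher (1.42 to 13.3). GYPSY5 had 19 reads in the Piwi-KD IP and 6 in the EGFP-KD IP, 3.09-fold higher (1.19 to 9.45). NOMAD and GYPSY5 rest on few reads, and GYPSY5 was no longer called with a 99% interval. BEL, which gives its name to the Bel/Pao group of LTR retrotransposons, had 213 reads in the Piwi-KD IP and 94 in the EGFP-KD IP, 2.21-fold higher (1.73 to 2.85).

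The largest fall was in ZAM, a retrovirus-like LTR element that piRNAs of the flamenco locus silence in follicle cells. It had 4 reads (3.60 RPM) in the Piwi-KD IP and 33 reads (30.5 RPM) in the EGFP-KD IP, a ratio of 0.118 (0.0304 to 0.332). IDEFIX, another flamenco target, had 10 reads in the Piwi-KD IP and 39 in the EGFP-KD IP, a ratio of 0.2501 (0.111 to 0.510). DM176, of the same retrovirus-like group, had 90 reads in the Piwi-KD IP and 259 in the EGFP-KD IP, a ratio of 0.339 (0.264 to 0.432). All 3 are LTR elements of the gypsy superfamily, as are MDG1 and DM412, which moved the other way.

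Other gypsy-superfamily LTR elements fell too. ROVER fell to a ratio of 0.139 (0.0266 to 0.467) on 3 reads in the Piwi-KD IP and 21 in the EGFP-KD IP. GYPSY4 fell to 0.176 (0.0835 to 0.337), HMSBEAGLE to 0.203 (0.110 to 0.350), BLASTOPIA to 0.313 (0.228 to 0.422) and MDG3 to 0.408 (0.283 to 0.580). BLASTOPIA was the best covered of these, with 58 reads in the Piwi-KD IP and 181 in the EGFP-KD IP. GYPSY6A, an entry of 420 bases that was put in no list, fell to 0.139 (0.0154 to 0.607) on 2 reads in the Piwi-KD IP and 14 in the EGFP-KD IP, while the other 13 that fell were between 4222 and 7962 bases long.

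The remaining falls were in non-LTR elements, which move by target-primed reverse transcription and have no terminal repeats. DOC6 had 88 reads in the Piwi-KD IP and 317 in the EGFP-KD IP, a ratio of 0.271 (0.211 to 0.344). The I element, known for the hybrid dysgenesis it causes in the female germ line, had 97 reads in the Piwi-KD IP and 304 in the EGFP-KD IP, a ratio of 0.311 (0.245 to 0.392). DOC fell to 0.186 (0.0945 to 0.341), IVK to 0.325 (0.117 to 0.794) and FW to 0.445 (0.252 to 0.761). IVK, with 7 reads in the Piwi-KD IP and 21 in the EGFP-KD IP, was no longer called with a 99% interval.

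Several elements with many IP reads were called in neither direction, among them the 4 with the most in the EGFP-KD IP, COPIA, Gypsy1, BLOOD and GYPSY. COPIA, known for its abundant RNA in cultured fly cells, had 9909 reads in the Piwi-KD IP and 10652 in the EGFP-KD IP, a ratio of 0.907 (0.883 to 0.933). Gypsy1 had a ratio of 1.08 (1.03 to 1.13) and GYPSY, a retrovirus with an envelope gene, one of 1.30 (1.23 to 1.37). BLOOD had 4671 reads in the Piwi-KD IP and 2643 in the EGFP-KD IP, a ratio of 1.72 (1.64 to 1.81), and DM297 had 1511 and 771 reads in the same order, a ratio of 1.91 (1.75 to 2.09). STALKER2, with 413 reads in the Piwi-KD IP and 528 in the EGFP-KD IP, had a ratio of 0.763 (0.669 to 0.869), and QUASIMODO, with 125 and 218 reads in that order, one of 0.559 (0.4453 to 0.70005). COPIA, Gypsy1, BLOOD, GYPSY and MDG1 together held 83.0% of the element reads of the Piwi-KD IP and 81.3% of those of the EGFP-KD IP.

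Of the 51 elements called in neither direction, 13 had an interval that excluded 1 without reaching 2-fold, 7 above 1 and 6 below it. For 10 of the 72 elements the interval lay wholly between 0.5 and 2, so counting error alone does not hide a 2-fold change between these libraries. They were BLOOD, CIRCE, COPIA, DIVER, GYPSY, Gypsy1, INVADER1, INVADER4, STALKER2 and TRANSPAC. Another 28 of the 51 had fewer than 20 reads in the IPs together, and a 2-fold difference was mostly not detectable at this depth. Of the 51, 14 had ratios past 2-fold with intervals that included 1, such as BURDOCK with 1 read in the Piwi-KD IP and 7 in the EGFP-KD IP.

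The RNA of the same elements was set beside the IP, from other cells and libraries. In RNA, 28 of 75 elements with a ratio passed as higher with Piwi depleted (37.3%) and 3 as lower (4.0%), with a median ratio of 1.37. Among the 28, the IP was higher for 5, lower for 10 and in neither class for 12, and PROTOP_B gave no IP ratio. Over all 72 elements with an IP ratio, 9.72% were higher and 19.4% lower. The median ratio of the 28 was 6.78 in RNA. In the IP it was 0.581 over the 27 with an IP ratio, of which 18 were below 1 and 9 above it. The 40 elements called in neither direction in RNA that had an IP ratio had a median IP ratio of 1.19.

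**Figure D2:**
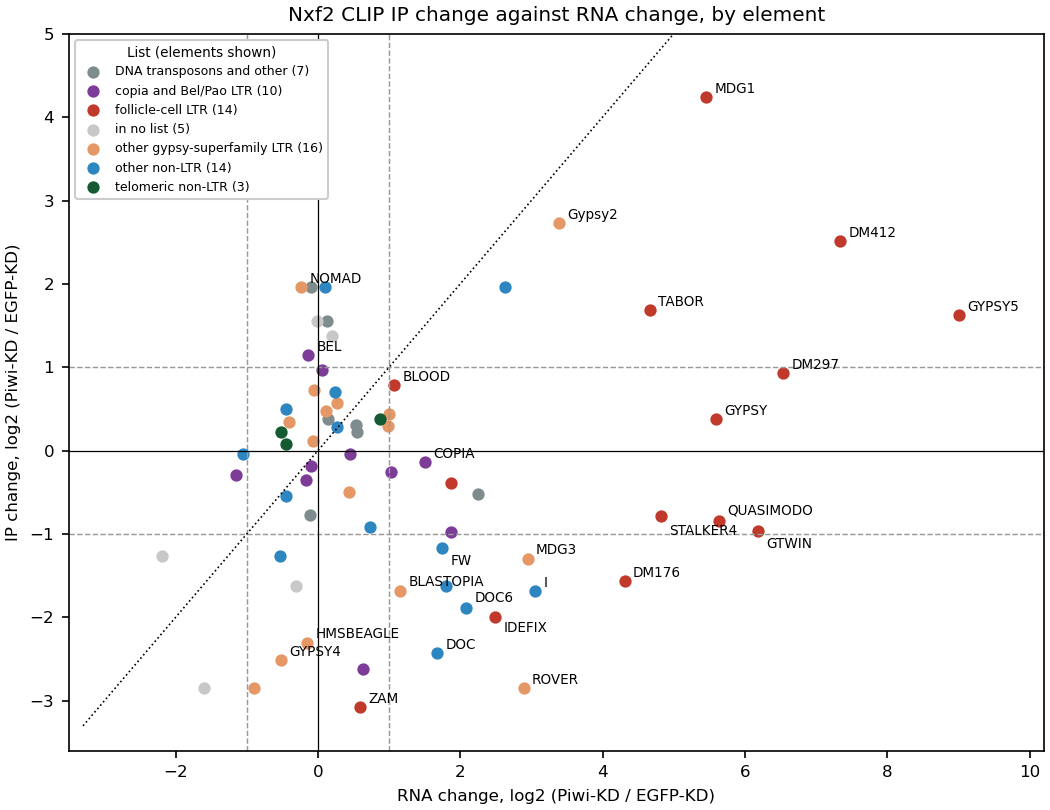
Each point is 1 of the 69 elements with both ratios, placed by its RNA change (x axis, log2 of Piwi-KD over EGFP-KD) and its Nxf2 CLIP IP change (y axis, same scale), coloured by list. Dashed lines mark 2-fold in either direction and the dotted line marks equal changes. GYPSY5 had log2 changes of 9.01 in RNA and 1.63 in the IP.

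The 5 elements higher in both were DM412, GYPSY5, Gypsy2, MDG1 and TABOR. GYPSY5 had 67.7 RPKM (reads scaled to library size and element length in kb) in Piwi-KD RNA and 0.132 RPKM in EGFP-KD RNA, a ratio of 514, against an IP ratio of 3.09. DM412 had 1035 RPKM in Piwi-KD RNA and 6.37 RPKM in EGFP-KD RNA, a ratio of 162, against 5.71 in the IP. MDG1, with 644 RPKM in Piwi-KD RNA and 14.7 RPKM in EGFP-KD RNA, had a ratio of 43.8 in RNA and 18.9 in the IP. Gypsy2 had 10.5 in RNA and 6.62 in the IP, and TABOR 25.4 in RNA and 3.22 in the IP. The IP ratio was the smaller in all 5, with overlapping intervals for Gypsy2 alone.

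The 10 elements higher in RNA and lower in the IP were BLASTOPIA, DM176, DOC, DOC6, FW, I, IDEFIX, IVK, MDG3 and ROVER. DM176 had 131 RPKM in Piwi-KD RNA and 6.62 RPKM in EGFP-KD RNA, a ratio of 19.8, while its IP ratio was 0.339. The I element had 72.4 RPKM in Piwi-KD RNA and 8.74 RPKM in EGFP-KD RNA, a ratio of 8.28, while its IP ratio was 0.311. MDG3 had 70.0 RPKM in Piwi-KD RNA and 9.06 RPKM in EGFP-KD RNA, a ratio of 7.72. These elements had more RNA in Piwi-depleted cells and gave a smaller share of the reads recovered with Nxf2.

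ROVER had an RNA ratio of 7.43 and IDEFIX one of 5.61, with 19.5 RPKM in Piwi-KD RNA and 3.47 RPKM in EGFP-KD RNA for IDEFIX. DOC6 (4.24), IVK (3.48), FW (3.35), DOC (3.20) and BLASTOPIA (2.23) had smaller RNA ratios. No element was called lower in RNA and higher in the IP. Of the other elements that fell in the IP, ZAM (RNA ratio 1.505), HMSBEAGLE (0.901) and GYPSY4 (0.698) passed in neither direction in RNA, and GYPSY6A was lower in RNA as well (0.330). BEL (0.909) and NOMAD (0.853), which were higher in the IP, passed in neither direction in RNA.

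The 12 elements higher in RNA and in neither class in the IP included the retrovirus-like DM297 and GYPSY. DM297 had 697 RPKM in Piwi-KD RNA and 7.51 RPKM in EGFP-KD RNA, a ratio of 92.9, against 1.91 in the IP. GTWIN had 45.8 RPKM in Piwi-KD RNA and 0.631 RPKM in EGFP-KD RNA, a ratio of 72.6, against 0.511 in the IP. QUASIMODO (RNA ratio 49.6), GYPSY (48.2) and STALKER4 (28.2) had IP ratios of 0.559, 1.30 and 0.581 in the same order. ROO had 3.64 in RNA and 0.510 in the IP, and COPIA 2.84 in RNA. The set was completed by BLOOD, BS2, Copia1, FB4 and STALKER2.

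**Figure D3:**
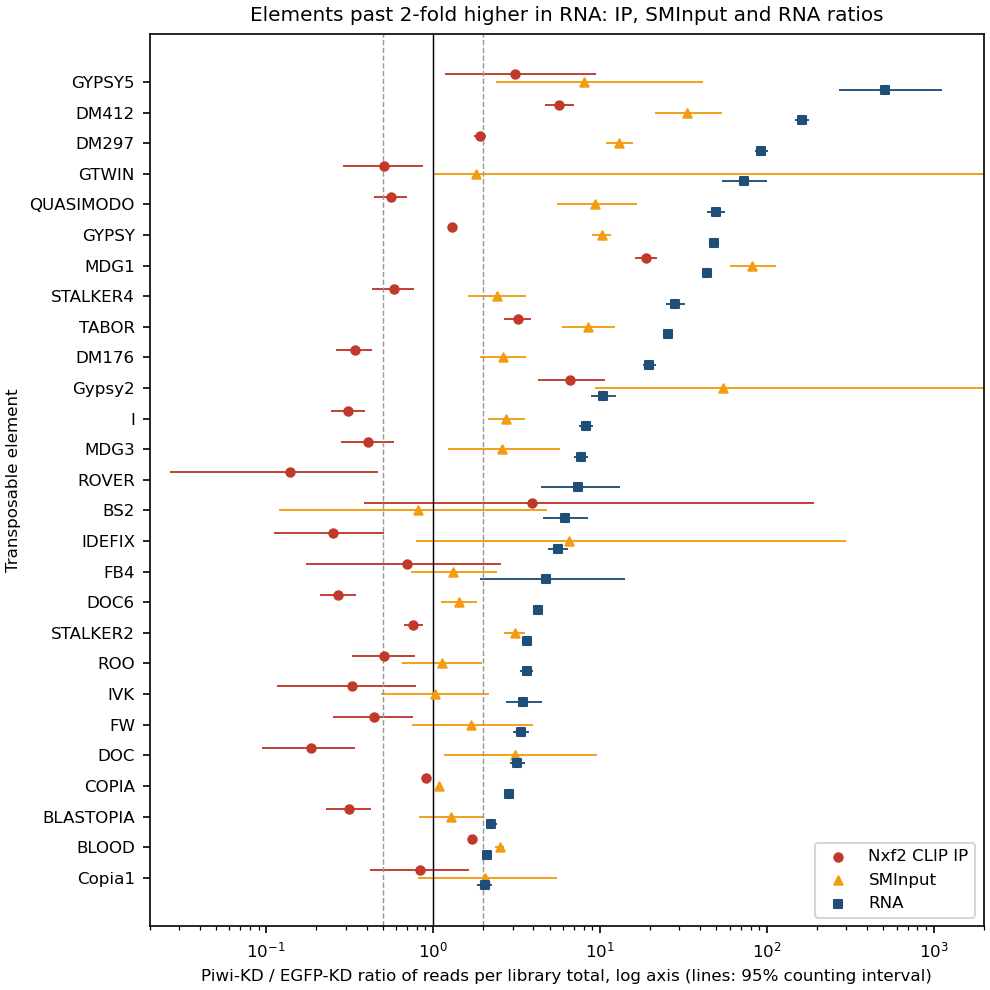
Ratios of Piwi-KD over EGFP-KD cells (log axis) in the Nxf2 CLIP IP (circles), SMInput (triangles) and RNA (squares) for the 27 elements called higher in RNA that had an IP ratio, ordered by the RNA ratio. Lines are exact 95% counting intervals, drawn to the edge of the plot where they run past it. The IP ratio lies below the RNA ratio in all 27, which were picked for a high RNA ratio, and ROVER has no SMInput ratio.

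The SMInput of the same cells moved more like the RNA than the IP did. SMInput was higher for 18 of 72 elements with a ratio (25%) and lower for 0 (0.00%), with 4 of the 54 others having an interval that excluded 1. Of the 14 elements that fell in the IP, 12 had an SMInput ratio, and those ranged from 1.03 (IVK) to 6.54 (IDEFIX), all above 1. Over all 72 elements with an SMInput ratio, 55 were above 1, with a median of 1.41. Some intervals among the 12 included 1, such as those of BLASTOPIA (1.29, 0.821 to 2.02) and FW (1.68, 0.744 to 3.98). The SMInput ratio was 2.75 in the I element, 2.61 in DM176 and 3.09 in DOC. Across the 69 elements with both ratios, log2 changes in IP and RNA had r = 0.22 and rho = 0.068, and those in SMInput and RNA, also over 69 elements, r = 0.68 and rho = 0.58. These describe elements, which are not replicates and share libraries. Without MDG1 the first r was 0.15.

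The IP change divided by the RNA change gives the change in recovery per unit of RNA, given here as a ratio of ratios and its exact conditional interval. It was lower in Piwi-KD cells for 27 of 69 elements (39.1%) and higher for 2 (2.90%), with a median of 0.618. With each element set against this median, 23 were lower and 11 higher, so the share called higher depends on that scaling. Elements picked as higher in RNA have a high denominator, so low values among them are partly built in. The value was below 1 in all 27 of them with an IP ratio, beside 47 of all 69 elements. It was lowest in GYPSY5 (0.00601, 0.00173 to 0.0230), GTWIN (0.00704, 0.00370 to 0.0133) and QUASIMODO (0.0113, 0.00872 to 0.0146). DM176 had 0.0171 (0.0131 to 0.0222), DM297 0.0206 (0.0181 to 0.0234) and GYPSY 0.0270 (0.0250 to 0.0291).

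Among non-LTR elements the ratio of ratios was 0.0376 (0.0290 to 0.0484) in I, 0.0582 (0.0293 to 0.108) in DOC and 0.0638 (0.0494 to 0.0818) in DOC6. MDG1 had 0.431 (0.368 to 0.506) and Gypsy2 0.631 (0.391 to 1.06), which was not called. The call of MDG1 was lost after median centring, where its log2 value was -0.52 instead of -1.22, and at a 3-fold threshold. COPIA (0.319) was also no longer called after centring, with a log2 value of -0.95 instead of -1.65. ZAM, whose RNA did not pass the threshold, had 0.0786 (0.0199 to 0.228). Only BEL (2.43, 1.89 to 3.14) and NOMAD (4.58, 1.65 to 15.7) were higher. NOMAD was 4.36-fold higher in SMInput (1.18 to 24.1), and with SMInput in place of RNA its log2 ratio of ratios was -0.16. With SMInput as the denominator 24 of 66 elements were lower (36.4%) and 2 higher (3.03%). The low value of GYPSY5 depended on the denominator, as with SMInput it was 0.387 (0.0559 to 2.15) and not called. COPIA (0.836, 0.805 to 0.869) and IVK (0.317, 0.0898 to 1.06) were not called with SMInput either, while QUASIMODO still was (0.05995, 0.0320 to 0.107). GTWIN had 0 reads in EGFP-KD SMInput, and its value of 0.281 there was set by the floor of 3 counts and is an upper limit.

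Recovery per unit of RNA was also computed for each knockdown on its own, as IP RPM per kb divided by RNA RPKM, for the 52 elements with more than 3 reads in each of the 4 libraries. The median was 0.296 in Piwi-KD cells and 1.47 in EGFP-KD cells. In EGFP-KD cells DM297 (14.4), R1 (12.9), GYPSY (12.9), FB4 (10.6) and GTWIN (8.89) were recovered most per unit of RNA. FB4 rested on 7 IP and 6 RNA reads in EGFP-KD cells, and R1 also rested on few reads in both knockdowns. In Piwi-KD cells R1, which inserts into ribosomal RNA genes, came first with 12.1, and GYPSY6 second with 9.15. DM297 had 0.297 in Piwi-KD cells, rank 26 of 52 against rank 1 in EGFP-KD cells, and GTWIN had 0.0625, rank 49 against rank 5. COPIA had 0.0840 in Piwi-KD cells and 0.263 in EGFP-KD cells, rank 44 against rank 46.

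**Figure D4:**
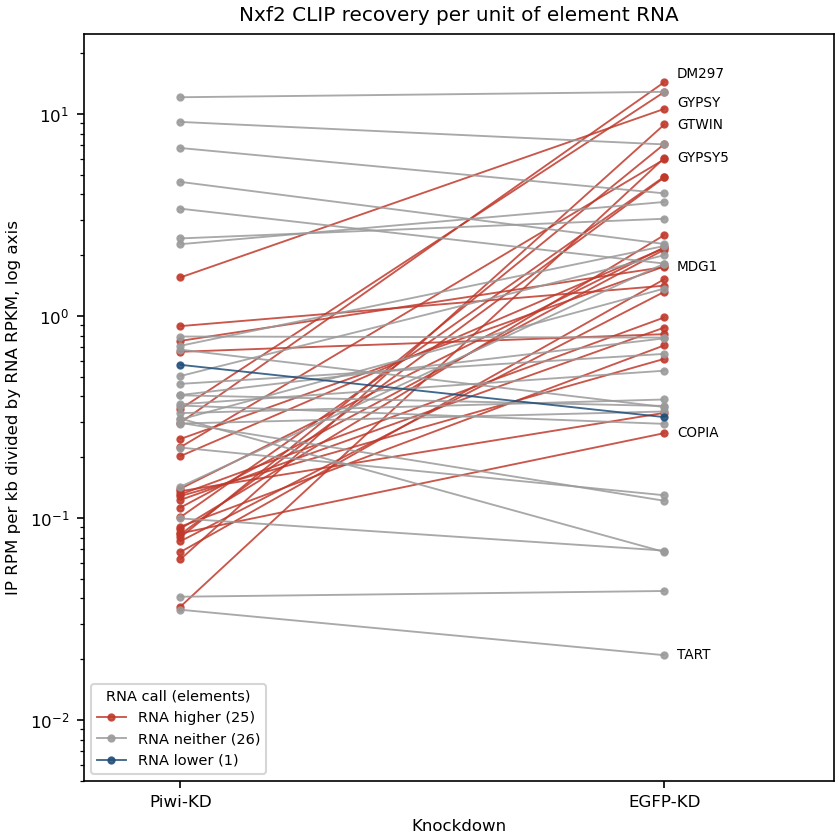
Nxf2 CLIP IP RPM per kb divided by RNA RPKM (log axis) for 52 elements in Piwi-KD and EGFP-KD cells, each line 1 element, coloured by its call in RNA. The lines of the 25 elements called higher in RNA all lie lower in Piwi-KD cells. This is partly built in, since RNA is the denominator. DM297 is at 0.297 in Piwi-KD cells and 14.4 in EGFP-KD cells.

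By class, the follicle-cell LTR list had 15 of its 19 entries among the kept elements. In the IP 4 of the 14 with a ratio rose (DM412, GYPSY5, MDG1 and TABOR) and 3 fell (DM176, IDEFIX and ZAM), with a median ratio of 0.995 beside 0.975 over all 72, of which 9.72% rose and 19.4% fell. In RNA 13 of 15 rose, beside 37.3% of all 75, with a median of 28.2 beside 1.37. Recovery per unit of RNA, the ratio of ratios, was lower for 13 of 14, beside 39.1% of all 69, with a median of 0.0308 beside 0.618. Before division, the summed IP level of the list was 13331 RPM in Piwi-KD cells and 6729 RPM in EGFP-KD cells. On the scale of IP RPM per kb over RNA RPKM, its 14 members with a value had a median of 0.0957 in Piwi-KD cells and 3.50 in EGFP-KD cells, beside 0.345 and 0.9298, in the same order, for the other 38 elements. RNA is the denominator of both recovery measures, so these contrasts are partly built in for a list whose members mostly rose in RNA. The list was also written with earlier results of these data known.

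The other gypsy-superfamily list had 19 of 29 entries kept. In the IP 2 of 17 rose (Gypsy2 and NOMAD) and 5 fell (BLASTOPIA, GYPSY4, HMSBEAGLE, MDG3 and ROVER), with a median ratio of 1.08. In RNA 4 of 18 rose. Recovery per unit of RNA was lower for 5 of 16 and higher for NOMAD. Beside 9.72% higher and 19.4% lower of all elements in the IP, 37.3% higher in RNA and 39.1% lower in recovery, these counts were near or under the shares over all elements, except the falls in the IP, which were somewhat above.

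Of the other non-LTR list, 15 of 28 entries were kept, and in the IP 0 of 15 rose and 5 fell (DOC, DOC6, FW, I and IVK), with a median ratio of 0.689, beside 9.72% higher and 19.4% lower of all 72. The 5 that fell were all among the 6 that rose in RNA, of 14 with an RNA ratio (37.3% of all 75 rose), and the other was BS2. The summed IP level of this list was 273 RPM in Piwi-KD cells and 760 RPM in EGFP-KD cells. No other list had a lower sum in the Piwi-KD IP by so large a factor.

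The copia and Bel/Pao list kept 10 of 12 entries, and in the IP BEL rose and 0 of 10 fell. Of all 72 elements with an IP ratio, 9.72% rose and 19.4% fell. COPIA, Copia1 and ROO rose in RNA, 3 of 10 beside 37.3% of all 75, and DIVER fell (0.451). Of the DNA transposon list, 9 of 16 were kept and 0 of 8 were called in the IP. In RNA FB4, on 6 EGFP-KD reads, and PROTOP_B rose, 2 of 8 beside 37.3% of all 75. All 4 telomeric entries, which maintain fly chromosome ends, were kept, and 0 of 3 with a ratio were called in the IP. With 3 to 10 IP ratios each, these lists are too small for 0 calls to set them apart from the shares over all elements. TART had 18 reads in the Piwi-KD IP and 15 in the EGFP-KD IP, a ratio of 1.17. In no list were 6 kept entries, of which GYPSY6A fell in the IP and BAGGINS1, Chimpo, DMTOM1, G5A and TC1-2 were not called.

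Other readouts of the series that shared no library with the IPs were set beside the classes, as a description. Piwi-bound small RNAs ranged from 283 RPM per kb (IVK) to 3145 RPM per kb (IDEFIX) in the 14 elements that fell in the IP, with a median of 1076. Of the 7 that rose, 5 had at least 1317 RPM per kb, led by DM412 with 4456, while BEL had 2.72 and NOMAD 101. The 51 elements called in neither direction had a median of 24.9 RPM per kb, and 11 of them reached 283 or more, GTWIN with 4278 and QUASIMODO with 4037 among them. COPIA had 62.2. All 14 elements that fell in the IP thus lay above the median of the 51. Elements with as many Piwi-bound small RNAs were found among those that rose and those called in neither direction. The classes also differed in depth, as 28 of the 51 had fewer than 20 IP reads, and the part of depth in this contrast was not tested.

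In a CLIP of Piwi itself in cells without knockdown, 13 of the 14 elements that fell in the Nxf2 IP were enriched over SMInput by the same rule, as were 51 of all 75 with a ratio. The exception was GYPSY6A. Of the 7 that rose, 5 were enriched there, MDG1 by 82.8-fold, and BEL (ratio 1.55) and NOMAD (1.91) were not. In the Nxf2 CLIP of crosslinked cells without knockdown, 8 of 13 elements that fell and 4 of 6 that rose were enriched over SMInput, against 22 of all 61 with a ratio. The most enriched of the 8 was FW (16.6-fold), on few input reads, and DM176 was enriched 7.30-fold. ZAM had a ratio of 0.951 there. An element could be called as fallen only with enough reads in the EGFP-KD Nxf2 IP, and these 14 had at least 12.9 RPM. A larger share enriched in another Nxf2 CLIP is therefore partly built in, and depth was not matched for either CLIP.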

How the data were processed

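The authors deposited read counts per transposable element, with 1 column per condition. They also deposited RPM for CLIP and small RNA and RPKM for RNA, per the file headers. Per the submitters' processing notes the tools for RNA were DESeq2, TopHat2 2.0.14, Bowtie 1.0.1 and Bowtie2 2.2.9, and for CLIP they were STAR, Bowtie, cutadapt and SAMtools, with no role or order, and the build was dm3. The element reference and the treatment of reads matching several elements are not given in the sources used here, so reads of related entries (Gypsy2 and GYPSY2, DM412 and DM412B) may be split.

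Library totals were recovered as counts over the deposited RPM or RPKM. Ratios of reads per total were computed with exact conditional binomial (Clopper-Pearson) intervals, and ratios of ratios with exact conditional odds ratio intervals (Python 3.11.15, scipy 1.17.1). Against 0 reads a floor of 3 counts per library was used, and no ratio was formed where both sides were at or under it. A replicated test could not be fitted to 1 column per condition, and no p-value was computed. The functions were tested on simulated counts. Alternatives are named in the closing section. Elements with full values were the called ones among the 10 highest and 10 lowest IP ratios, those called in opposite directions in IP and RNA, and the 10 with most EGFP-KD IP reads, and the 5 on either side of the 1 RPM threshold were named with their range. Others were named by class or after their values were seen. The members and lists were chosen with earlier results of these data known, so no list is independent evidence. Chromatin peak lists were not used here.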

Additional observations from a re-analysis of the deposited data

How the results depend on the processing

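No paired analysis was possible because the tables have 1 column per condition and the columns carry no replicate numbers, and for the same reason no replicate could be left out. The counts of the IP change stayed within 1.5 times under every alternative run (no filter, a mean of at least 10 RPM, totals without element reads, median centring, 1.5-fold and 3-fold thresholds, a 99% interval and pseudocounts), except that with a pseudocount of 1 and no interval 16 elements were higher. Median centring took 0.46 off the log2 changes in RNA and left 5 elements lower in RNA. A mean of at least 10 RPM left 1, as did a 3-fold threshold. For recovery per unit of RNA, 11 elements were higher after median centring, 5 at 1.5-fold, and 1 at 3-fold or with a mean of at least 10 RPM. At 3-fold, 6 elements were higher in RNA and lower in the IP. Median centring turned the log2 ratio of ratios of BLOOD to 0.40 and of Gypsy2 to 0.029, and SMInput in place of RNA turned that of Gypsy1 to -0.20 and of NOMAD to -0.16. The cause was not tested. Of 21 called IP changes, 13 passed under every alternative that gave a value. That 0 reversed is no support, since these settings could not turn the sign of a change past 2-fold. GYPSY5, FW, IVK, NOMAD and GYPSY6A were lost with a pseudocount of 10 RPM, and BEL, DM176, FW and MDG3 at 3-fold. Depth limited the low entries: 3 reads were 2.70 RPM in the Piwi-KD IP and 2.77 RPM in the EGFP-KD IP.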

Other observations

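Some elements were recovered per unit of RNA at nearly the same level in both knockdowns. R1 had 12.1 IP RPM per kb over RNA RPKM in Piwi-KD cells and 12.9 in EGFP-KD cells, on 12 and 17 IP reads in that order, and its RNA had 8 and 12 reads in that order. The copia-superfamily DM1731 had 0.0408 and 0.0435 in the same order, on 9 and 10 IP reads. Its ratio of ratios of 0.937 had an interval of 0.336 to 2.57, which does not exclude a 2-fold change. Gypsy1, the best covered of these with 4386 IP reads in Piwi-KD cells and 3959 in EGFP-KD cells, had 0.405 and 0.359 in the same order. The telomeric TART had 0.0352 in Piwi-KD cells and 0.0209 in EGFP-KD cells, the lowest value of the 52 elements in each, and this difference was not called. The spread of the log2 values over the 52 elements was similar, with an SD of 2.03 in Piwi-KD cells and 2.1995 in EGFP-KD cells. BEL, higher in the IP on 213 and 94 reads in Piwi-KD and EGFP-KD cells, had an SMInput ratio of 0.995 (0.746 to 1.33) and an RNA ratio of 0.909, so neither its input nor its RNA moved by 2-fold.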
